A study of Mus musculus with 20 samples.

Results

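The subject is a set of 10 genes that mark the fibroblasts of the adventitia, the outer coat of an artery: Pdgfra, Dcn, Pi16, Dpt, Ly6a, Clec3b, Cd248, Scara5, Mfap5 and Serpinf1. They were chosen by name, and all 10 were among the 12635 genes tested, out of 15332 genes listed. RNA was sequenced from mouse abdominal aorta, and 15 libraries were compared in 3 groups of 5: mice labelled KO infused with angiotensin II (Ang II), wild-type (WT) mice infused with Ang II, and WT mice infused with saline. Ang II, a peptide hormone that narrows arteries, was given at 500 ng per kg per min. DAPK1, a protein kinase activated by calcium and calmodulin, stands in the title of the series, but the labels state neither the deleted exons nor whether the deletion is confined to a cell type, and strain, sex, age and length of infusion are not stated in the labels. Each library carries its own animal number, and nothing in the labels ties animals of different groups together.

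The adventitia surrounds the smooth muscle layer of the aorta and borders on perivascular fat. Its fibroblasts make most of the collagen, proteoglycan and microfibril matrix of the outer wall, and in mouse hypertension models they can multiply, become contractile and lay down more matrix. Part of them behaves as a progenitor pool, which carries Pi16, Ly6a and Cd248. Several of these genes are read in other cells too: Ly6a in endothelial and blood-forming cells, Cd248 in pericytes, and Pdgfra in the progenitors of fat cells.

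The sequences just upstream of 3 of the genes are shown because their deviations from the group means were alike over the 15 libraries, for Dpt less so without 1 animal, as described further on. Each runs from 250 bases before to 50 bases after the gene's start in RefSeq (GRCm38.p6), and the table used held 4 of the 10 genes: Pdgfra, Pi16, Dpt and Serpinf1. Capitals mark the motifs searched on both strands, which were the TATA box TATAAA, the CCAAT box, the Sp1 site GGGCGG and the AP-1 site TGANTCA, none of which overlapped another here. The windows are chr5:75152001-75152300 on the plus strand for Pdgfra, chr1:164796413-164796712 on the plus strand for Dpt, and chr11:75422574-75422873 on the minus strand for Serpinf1.
Pdgfra: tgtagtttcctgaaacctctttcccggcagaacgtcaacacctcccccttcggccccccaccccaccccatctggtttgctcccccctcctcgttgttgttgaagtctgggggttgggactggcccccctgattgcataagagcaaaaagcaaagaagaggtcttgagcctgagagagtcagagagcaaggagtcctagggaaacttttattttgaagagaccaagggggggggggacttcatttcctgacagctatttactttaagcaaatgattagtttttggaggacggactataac
Dpt: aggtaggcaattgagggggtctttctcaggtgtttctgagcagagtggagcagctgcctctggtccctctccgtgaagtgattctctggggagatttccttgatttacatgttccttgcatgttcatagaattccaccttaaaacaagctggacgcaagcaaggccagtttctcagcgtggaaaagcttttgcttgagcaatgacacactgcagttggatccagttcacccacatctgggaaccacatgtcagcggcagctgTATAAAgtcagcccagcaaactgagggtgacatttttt
Serpinf1: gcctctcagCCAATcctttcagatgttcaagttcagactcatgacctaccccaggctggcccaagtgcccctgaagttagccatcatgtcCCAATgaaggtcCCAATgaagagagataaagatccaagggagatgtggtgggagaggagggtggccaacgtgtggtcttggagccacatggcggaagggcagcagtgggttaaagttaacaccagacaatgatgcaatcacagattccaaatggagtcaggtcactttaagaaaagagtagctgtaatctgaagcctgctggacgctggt
The Serpinf1 window held CCAAT 3 times, at -241, -160 and -148 from the start, and the Dpt window held TATAAA once, at 13 bases after it. Pdgfra had none of the 4 motifs, and Pi16 (chr17:29318632-29318931, plus strand, not printed) had CCAAT once, at -64. Among all 32851 promoters of this length 37.4% held CCAAT, 13.6% TATAAA, 35.7% GGGCGG and 7.81% TGANTCA. No motif of those searched was in all 4 windows, and CCAAT was in those of Pi16 and Serpinf1 only.

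The libraries were of similar depth, 70.2 to 73.5 megareads in KO Ang II, 59.0 to 74.5 in WT Ang II and 62.8 to 67.0 in WT saline, as worked out from the deposited values. Levels are FPKM, which are fragments scaled by transcript length and library size, added up over the annotated transcripts of a gene. Dapk1 itself had 4.997 to 13.8 FPKM in KO Ang II, 3.96 to 19.9 in WT Ang II and 9.48 to 15.4 in WT saline, and its difference between KO and WT Ang II was -0.22 on the log2 scale (limma, adjusted p = 0.847), so the KO label is unchecked by RNA and each direction drawn from it is too. A further group of 5 libraries, KO given saline, lists 0 transcripts of the set, and was not used. The 8 contractile smooth muscle markers, which check the tissue, added up to 5650 to 10300 FPKM in KO Ang II, 7070 to 14700 in WT Ang II and 5790 to 13000 in WT saline. Intestinal transcripts were present in all KO Ang II libraries (24.8 to 59.2 FPKM summed over 8 markers) and in the WT Ang II libraries WTAngII580 and WTAngII581 (18.7 and 16.4), and were listed at 0 in the other WT Ang II animals and in WT saline.

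The 10 genes lay between 5.88 and 1651 FPKM in the 15 libraries. Dcn was the most abundant in each library group, with a mean of 973.5 FPKM over the 15 libraries, followed by Dpt at 217, Clec3b at 174 and Serpinf1 at 160.3. Scara5, Ly6a, Pi16 and Mfap5 formed a middle tier between 68.4 and 86.6 FPKM. Pdgfra at 26.3 and Cd248 at 18.2 FPKM were lowest. The ranges of neighbours in this order overlapped, with 1 exception: Dcn, with at least 542 FPKM, was above all the others, which reached at most 301. In bulk tissue fewer fibroblasts and less of each RNA per fibroblast cannot be told apart, here and in each comparison below. Behind these sums stood 962 to 6278 reads per library for Cd248 and 6877 to 18656 for Pdgfra, so counting error was small beside the spread between animals.

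**Figure D1:**
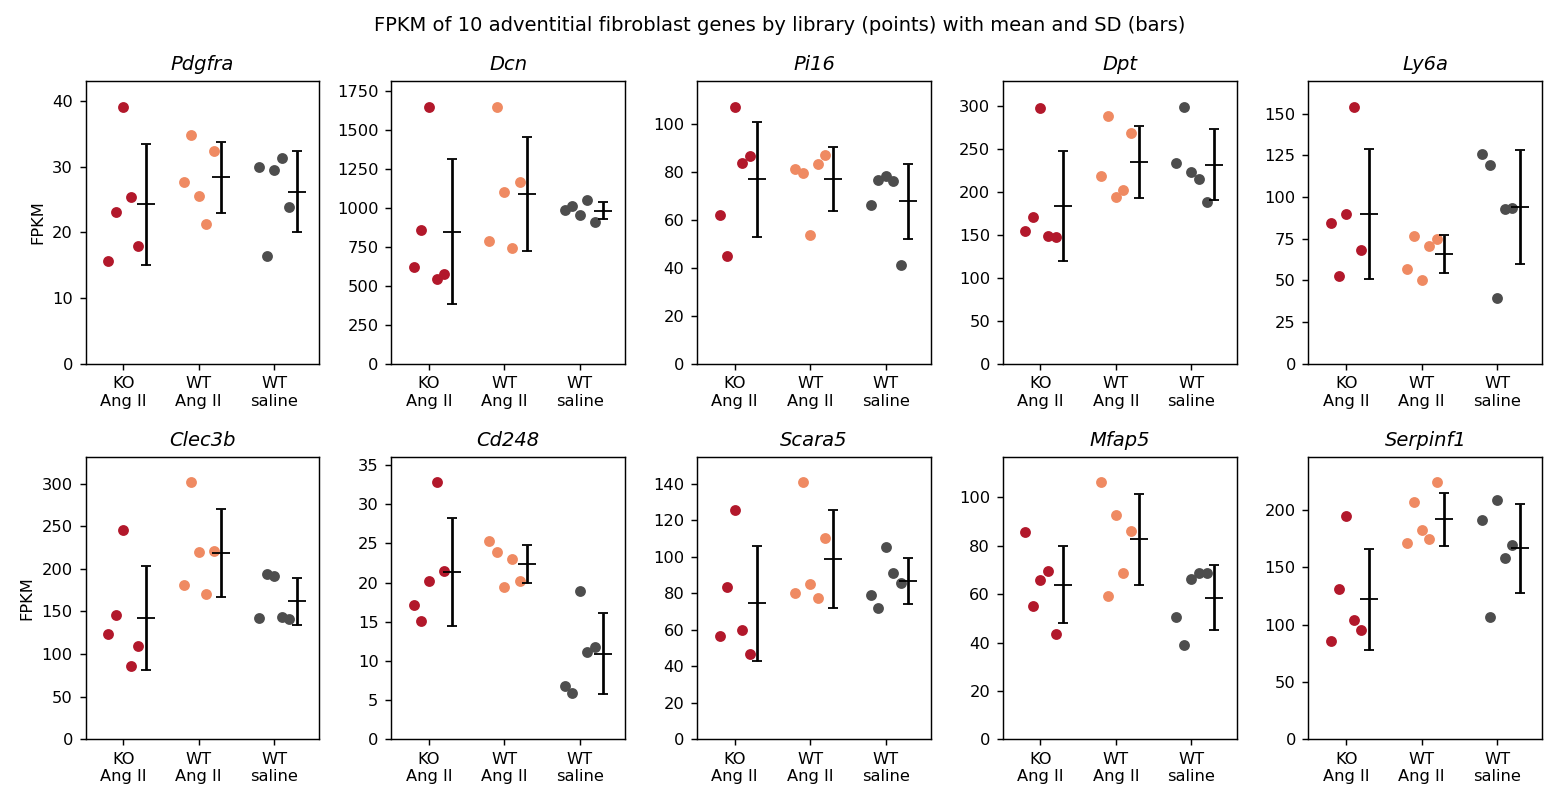
FPKM (vertical axis, from 0) of each of the 10 genes in each library, with KO Ang II at the left, WT Ang II in the middle and WT saline at the right of each panel; points are animals, and bars are means with SD (n = 5 per group). The groups overlap in every panel except WT Ang II and WT saline for Cd248, and single KO Ang II animals stand above their group for Dcn and Dpt.

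Among the receptors and surface proteins, Cd248 showed the widest gap between groups. It codes for endosialin, a transmembrane glycoprotein of fibroblasts and pericytes (chromosome 19, 5068078 to 5070682, plus strand, GRCm38). In the KO Ang II libraries KOAng_II402, KOAngII537, KOAngII560, KOAngII612 and KOAngII628 its levels were 17.2, 15.1, 20.3, 32.8 and 21.4 FPKM. In the WT Ang II libraries WTAng_II519, WTAng_II536, WTAngII568, WTAngII580 and WTAngII581 they were 25.3, 23.9, 19.5, 23.1 and 20.2, and in the WT saline libraries WTNS_369, WTNS_373, WTNS_523, WTNS_547 and WTNS_550 they were 6.83, 5.88, 18.9, 11.2 and 11.8. Each WT Ang II library lay above each WT saline library, and KO Ang II overlapped WT Ang II widely but WT saline only through WTNS_523. The means were 21.4 ± 6.86 FPKM in KO Ang II, 22.4 ± 2.48 in WT Ang II and 10.9 ± 5.17 in WT saline (SD, n = 5 each). WT Ang II differed from WT saline by 1.07 on the log2(FPKM + 1) scale (SE 0.26, 95% interval 0.52 to 1.63), rank 12 of 12635 genes by limma p, which did not pass after Benjamini-Hochberg adjustment over all of them (adjusted p = 0.794). KO Ang II differed from WT saline by 0.96 (SE 0.26, limma adjusted p = 0.273) and from WT Ang II by -0.11 (95% interval -0.66 to 0.45, adjusted p = 0.918). Without WTNS_523 the differences from WT saline were 1.28 in WT Ang II (limma adjusted p = 0.29) and 1.18 in KO Ang II (adjusted p = 0.0863), neither past the threshold of 0.05.

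Pdgfra, the receptor for platelet-derived growth factor A and the usual surface marker of fibroblasts, is on chromosome 5 (75152292 to 75198215, plus strand). It had 15.6, 23.2, 39.1, 25.4 and 17.98 FPKM in KO Ang II, 27.7, 34.9, 25.5, 21.3 and 32.4 in WT Ang II, and 29.97, 16.4, 29.5, 31.3 and 23.8 in WT saline, with animals in the order given for Cd248 here and below. KO Ang II held both the highest and the lowest library, and all groups overlapped. The difference of KO Ang II was -0.27 from WT Ang II (SE 0.23, limma adjusted p = 0.731) and -0.14 from WT saline (adjusted p = 0.915), and that of WT Ang II from WT saline was 0.13 (adjusted p = 0.957).

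Scara5, a scavenger receptor that takes up ferritin, is on chromosome 14 (65666403 to 65764826, plus strand). It had 56.6, 83.4, 125.5, 59.7 and 46.97 FPKM in KO Ang II, 79.95, 141, 85.3, 77.4 and 110.2 in WT Ang II, and 79.0, 72.1, 105.5, 90.9 and 85.8 in WT saline. In KO Ang II 3 libraries lay below every WT Ang II and every WT saline library, while KOAngII560 was above every WT saline one. The difference of KO Ang II from WT Ang II was -0.45 (95% interval -0.97 to 0.06, limma adjusted p = 0.632).

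Ly6a, the stem cell antigen Sca-1, a small membrane-anchored protein, is on chromosome 15 (74994877 to 74998031, minus strand). It belongs to a family of closely related neighbouring genes, so its reads may be shared with them and its level is uncertain. It had 84.6, 52.7, 89.9, 154 and 67.99 FPKM in KO Ang II, 57.1, 76.7, 50.2, 70.4 and 74.6 in WT Ang II, and 125.6, 119, 39.2, 92.8 and 93.7 in WT saline. It was the only one of the 10 genes with a difference below 0 in WT Ang II versus WT saline, at -0.43 (SE 0.31, limma adjusted p = 0.94), and the only one above 0 between KO and WT Ang II, at 0.37 (adjusted p = 0.723). All WT Ang II libraries lay under the WT saline median, but WTNS_523 was the lowest of all 15.

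Dcn, Dpt and Mfap5 code for matrix proteins. Dcn is decorin, the small proteoglycan that coats collagen fibrils and binds transforming growth factor beta (chromosome 10, 97479609 to 97518143, plus strand). It had 618, 856, 1650, 542 and 575 FPKM in KO Ang II, 789, 1651, 1100, 741 and 1165 in WT Ang II, and 987, 1013, 954, 1052 and 909 in WT saline. Its mean was 848 ± 465 FPKM in KO Ang II, 1089 ± 365 in WT Ang II and 983 ± 54.8 in WT saline (SD, n = 5 each). The WT saline animals were close together, with an SD of 5.58% of the mean, against 54.8% in KO Ang II and 33.5% in WT Ang II, a difference in spread that was not tested. In KO Ang II 4 animals lay below every WT saline animal and KOAngII560 far above. The differences of Dcn were -0.44 between KO and WT Ang II (SE 0.29, limma adjusted p = 0.659), -0.35 for KO Ang II versus WT saline (adjusted p = 0.823) and 0.09 for WT Ang II versus WT saline (adjusted p = 0.973).

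Dpt, dermatopontin, helps collagen fibrils assemble and binds decorin (chromosome 1, 164796644 to 164824266, plus strand). It had 154, 171, 297, 149 and 147 FPKM in KO Ang II, 218, 289, 194, 203 and 269 in WT Ang II, and 234, 299, 223, 215 and 189 in WT saline. The same 4 KO Ang II animals were below every library of both WT groups, and KOAngII560 was among the highest of all. Their group differed by -0.39 from WT Ang II (SE 0.20, limma adjusted p = 0.629) and by -0.37 from WT saline (SE 0.20, adjusted p = 0.672), while WT Ang II and WT saline differed by 0.02 (95% interval -0.41 to 0.44).

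Mfap5 is MAGP-2, a protein of the fibrillin microfibrils (chromosome 6, 122505845 to 122529290, plus strand). It had 85.7, 55.2, 65.7, 69.7 and 43.5 FPKM in KO Ang II, 106, 59.3, 92.6, 68.9 and 86.2 in WT Ang II, and 50.5, 38.97, 66.2, 68.7 and 68.6 in WT saline. In WT Ang II 4 of 5 libraries were above every WT saline library. The difference of WT Ang II from WT saline was 0.49 (SE 0.21), which did not pass over all genes (limma adjusted p = 0.94), and that of KO Ang II from WT Ang II was -0.37 (adjusted p = 0.637).

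The other 3 genes code for secreted or shed proteins. Serpinf1 is pigment epithelium-derived factor, a serpin without protease inhibition that restrains vessel growth (chromosome 11, 75409769 to 75422701, minus strand). It had 85.8, 131, 195, 104 and 95.5 FPKM in KO Ang II, 171, 207, 182, 175 and 224 in WT Ang II, and 191, 106, 208.5, 158 and 169 in WT saline. All KO Ang II libraries other than KOAngII560 were below every WT Ang II animal. The means were 122 ± 44.1 FPKM in KO Ang II, 192 ± 22.8 in WT Ang II and 167 ± 38.9 in WT saline (SD, n = 5 each). The difference between KO and WT Ang II was -0.70 (SE 0.22, 95% interval -1.17 to -0.23), and this did not pass (limma adjusted p = 0.605). Against WT saline the KO Ang II difference was -0.47 (SE 0.22, limma adjusted p = 0.59).

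Clec3b is tetranectin, a plasminogen-binding C-type lectin (chromosome 9, 123150946 to 123157432, plus strand). It had 124, 146, 245, 86.4 and 109.9 FPKM in KO Ang II, 181, 301, 219, 170.3 and 221 in WT Ang II, and 143, 193.5, 191, 143 and 141 in WT saline. Again 4 of 5 KO Ang II animals were below every WT Ang II animal, with KOAngII560 the exception. The difference of KO Ang II from WT Ang II was -0.68 (SE 0.24, limma adjusted p = 0.62), and that of WT Ang II from WT saline was 0.42 (SE 0.24, adjusted p = 0.94).

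Pi16, peptidase inhibitor 16, marks the progenitor-like fibroblasts of the outer adventitia (chromosome 17, 29317680 to 29330593, plus strand). It had 61.9, 44.9, 107, 83.5 and 86.5 FPKM in KO Ang II, 81.2, 79.5, 53.6, 83.1 and 87.1 in WT Ang II, and 66.3, 76.7, 78.2, 75.96 and 41.1 in WT saline. The groups overlapped, with means of 76.8 ± 24.0, 76.9 ± 13.3 and 67.7 ± 15.6 FPKM in KO Ang II, WT Ang II and WT saline (SD, n = 5 each). Its differences were -0.04 between KO and WT Ang II (95% interval -0.55 to 0.46) and 0.20 for WT Ang II versus WT saline (95% interval -0.30 to 0.70).

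**Figure D2:**
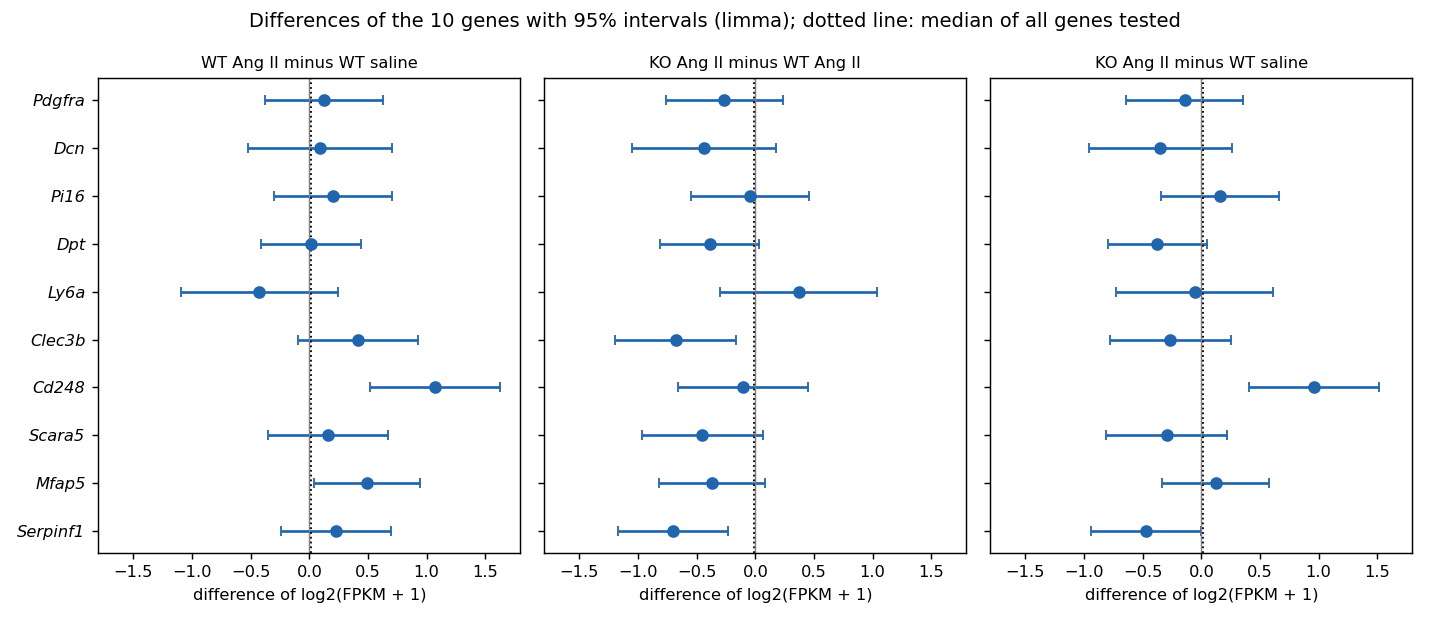
Difference of each of the 10 genes on the log2(FPKM + 1) scale (horizontal axis), with 95% intervals from limma, for WT Ang II minus WT saline (left), KO Ang II minus WT Ang II (middle) and KO Ang II minus WT saline (right); the dotted line is the median of all 12635 genes. Intervals clear of 0 are those of Cd248 and Mfap5 at the left, Clec3b and Serpinf1 in the middle, and Cd248 and Serpinf1 at the right, none of which passed after adjustment over all genes.

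WT Ang II was set against WT saline to ask what the infusion did to these genes. Of the 10 genes, 9 had a difference above 0 and Ly6a one below, where 52.6% of all genes were above 0. Dpt, at 0.02, turned to -0.02 after quantile normalization. The median of the 10 was 0.18, against 0.01 over all genes. All 8 contractile smooth muscle markers were above 0 too, with a median of 0.28. All 6 brown adipocyte, 7 sympathetic neuron and 5 tested skeletal muscle markers were below 0, with medians of -1.065, -0.59 and -1.025. What part such shifts have in the values of the 10 genes was not tested. By limma 0 of 10 passed, as did 0% of all genes, and the smallest adjusted p over all genes was 0.392. At an unadjusted p under 0.05 stood Cd248 and Mfap5, 2 of 10, against 4.88% of all genes. The groups did not overlap in 1 of the 10, Cd248, where the same was true, in the direction of higher WT Ang II, of 0.673% of all genes.

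The next comparison asked how infused KO and infused WT aortas differed. Here 9 of the 10 genes had a difference below 0 and Ly6a one above, where 51.4% of all genes were below 0, and the median was -0.38 against -0.01 over all genes. By limma 0 of 10 passed, as did 0% of all genes, with 0.236 the smallest adjusted p over all genes. Serpinf1 and Clec3b, 2 of 10, had an unadjusted p under 0.05, against 7.95% of all genes. No gene of the 10 had groups that did not overlap, which was so for 1.12% of all genes. The comparison shares its WT Ang II libraries with the one above, so a WT Ang II animal that is high gives differences of opposite sign in both.

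KO Ang II was set against WT saline as well. Differences were below 0 in 7 of the 10 genes, as in 47.4% of all genes, and above 0 in Cd248, Pi16 and Mfap5, with a median of -0.20 against 0.02 over all genes. By limma 0 of 10 passed, against 0.103% of all genes, which is 13 genes, 7 of them intestinal markers. Cd248, higher, and Serpinf1, lower, had an unadjusted p under 0.05, 2 of 10 against 8.38% of all genes. Groups that did not overlap numbered 0 of 10, against 1.83% of all genes.

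Markers of other cells were read beside the 10 genes, and their part in the differences was not tested beyond the values given here. Between KO and WT Ang II all 8 contractile smooth muscle markers were below 0 with a median of -0.41, close to that of the 10 genes, and all 6 brown adipocyte markers, 6 white adipocyte markers and 7 sympathetic neuron markers were above 0 with medians of 1.00, 0.37 and 1.73. None of these passed in limma. With FPKM rescaled to the same total the white adipocyte count was 5 of 6, and the other 3 counts were unaltered by rescaling and by quantile normalization. Summed brown adipocyte markers were 335 to 2350 FPKM in KO Ang II, 138 to 2350 in WT Ang II and 546.8 to 3080 in WT saline. Summed white adipocyte markers were 2190 to 7300 FPKM in KO Ang II, 1670 to 5710 in WT Ang II and 2280 to 7980 in WT saline, and summed sympathetic markers were 53.0 to 903 in KO Ang II, 19.8 to 153 in WT Ang II and 34.0 to 503 in WT saline. Pericyte markers, of which Cd248 is also known to be one, were above 0 in 5 of 5 genes in WT Ang II versus WT saline with a median of 0.37, and their sum was 398 to 1720 FPKM in KO Ang II, 711 to 1310 in WT Ang II and 554 to 1080 in WT saline. The markers of fat cell progenitors, in which Pdgfra is also read, were summed as well. They added up to 132 to 183 FPKM in KO Ang II, 139 to 177 in WT Ang II and 98.7 to 126 in WT saline. Each Ang II library was thus above each saline library in this sum, most of which was F3. Mean F3 was 90.8 FPKM in KO Ang II, 109 in WT Ang II and 64.25 in WT saline. The median of the 5 tested was 0.03 in WT Ang II versus WT saline, with 4 above 0, against 0.01 over all genes. The 7 macrophage markers were all above 0 in WT Ang II versus WT saline with a median of 0.56, at 228 to 486 FPKM in KO Ang II, 314 to 439 in WT Ang II and 218 to 313 in WT saline. Endothelial markers, to set beside Ly6a, added up to 140 to 298 FPKM in KO Ang II, 199 to 573 in WT Ang II and 176 to 379 in WT saline. Schwann cell markers were above 0 in 6 of 6 between KO and WT Ang II (median 0.42), and summed skeletal muscle markers were 1.79 to 24.3 FPKM in KO Ang II, 2.84 to 150.4 in WT Ang II and 1.73 to 178 in WT saline. Of 6 mesothelial markers 3 were listed and 0 passed the filter, with sums of 1.12 to 5.88 FPKM in KO Ang II, 0.0408 to 1.01 in WT Ang II and 0 to 0.537 in WT saline. Of these Lrrn4 and Upk3b are not in the WT tables and count as 0 there, and Krt19, the one in both tables, had 0.967 to 2.55 FPKM in KO Ang II, 0.0408 to 1.01 in WT Ang II and 0 to 0.537 in WT saline, with overlap of KO and WT Ang II. No listed marker of these lists was at 0 in all libraries.

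The signs of the 10 genes were recomputed with these tissues taken into account. With the mean levels of skeletal muscle, sympathetic neuron and brown adipocyte markers as covariates, 5 of the 10 were above 0 in WT Ang II versus WT saline (median 0.002). Between KO and WT Ang II 6 were then below 0 (median -0.32), as were 6 in KO Ang II versus WT saline (median -0.33). Among the libraries without intestinal transcripts, 9 of 10 were above 0 in WT Ang II versus WT saline (median 0.20). Here WT Ang II was WTAng_II519, WTAng_II536 and WTAngII568. Among those with them, 9 of 10 were below 0 between KO and WT Ang II (median -0.29), with only WTAngII580 and WTAngII581 as WT Ang II. All these libraries are in the main fit too. No gene of the 10 passed limma in any of these fits.

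The 10 genes did not vary as 1 block. KOAngII560 was the highest of its group in 7 of them (Pdgfra, Dcn, Pi16, Dpt, Clec3b, Scara5 and Serpinf1), and WTAng_II536 the highest of its group in 6 (Pdgfra, Dcn, Dpt, Ly6a, Clec3b and Scara5). WTNS_373 was the lowest of its group in 5 (Pdgfra, Cd248, Scara5, Mfap5 and Serpinf1) but the highest in Dpt and Clec3b. Ly6a, Cd248 and Mfap5 peaked in other KO Ang II animals, Ly6a and Cd248 in KOAngII612 and Mfap5 in KOAng_II402. KOAngII560 also had the most pericyte (1722 FPKM), contractile smooth muscle (10310 FPKM) and endothelial (297.5 FPKM) marker RNA of its group. It had the least brown adipocyte marker RNA (335 FPKM). Its contribution is visible in the medians between KO and WT Ang II, which were -0.51 without it and ran to -0.28, without KOAngII628, as each library was left out in turn. For KO Ang II versus WT saline the median was -0.40 without KOAngII560 and -0.10 without KOAngII628.

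**Figure D3:**
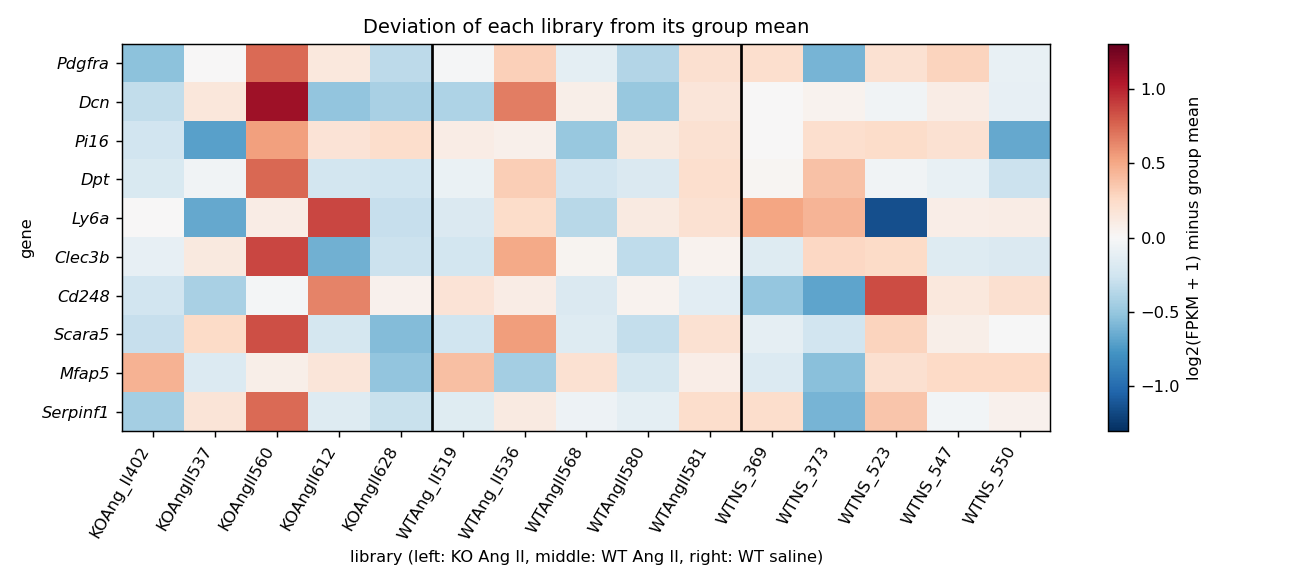
Deviation of each library (columns) from the mean of its own group on the log2(FPKM + 1) scale for each of the 10 genes (rows), with KO Ang II at the left, WT Ang II in the middle and WT saline at the right of the black lines; red is above and blue below the group mean. KOAngII560 is red in Pdgfra, Dcn, Dpt, Clec3b, Scara5 and Serpinf1, by up to 1.097 in Dcn, whereas Ly6a, Cd248 and Mfap5 follow other animals.

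As a measure of this shared variation the deviations were scaled and averaged over the 10 genes in each of the 15 libraries. Pearson's r with that average was 0.90 for Scara5, 0.89 for Pdgfra, 0.82 for Dcn, 0.81 for Serpinf1, 0.77 for Dpt and 0.70 for Clec3b. For Pi16 it was 0.49, for Cd248 0.24, for Mfap5 0.14 and for Ly6a 0.07. These are descriptions over 15 libraries, with no test, and the average holds each gene itself. Without KOAngII560 r was 0.88 for Scara5, 0.81 for Pdgfra, 0.68 for Dcn, 0.63 for Serpinf1, 0.50 for Dpt, 0.46 for Clec3b, 0.32 for Cd248 and 0.18 for Pi16, with the widest drops in Pi16, Dpt and Clec3b. Of the genes whose promoters are printed above, Pdgfra and Serpinf1 kept an r above 0.6 without it and Dpt did not.

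Among the other tested genes, those with the highest r were Gas1 (0.94), Eif4a2 (0.93), Glt8d2 (0.93), Hapln1 (0.92), Angpt4 (0.92), Egflam (0.91), Ctsk (0.91), Plpp3 (0.91), Rgs5 (0.91) and Galnt17 (0.91). Gas1 is a membrane protein that acts in hedgehog signalling, Ctsk is the collagen-cleaving protease cathepsin K, and Rgs5 is a pericyte and smooth muscle regulator of G protein signalling. They were selected for this likeness, so it is given with no test. Without KOAngII560 the r of Gas1 was 0.88, of Ctsk 0.76 and of Rgs5 0.70. Between 3 and 9 of the 10 were among the top 10 again when single libraries were left out, and the smallest number was found without KOAngII560.

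The annotated transcripts of the genes were followed next, 31 in all, of which 29 had values in both tables and 26 passed the filter. Dpt, Clec3b, Cd248 and Scara5 were represented by 1 listed transcript each, and Dcn by Dcn-201 for 92.2% of its sum. Tested as transcripts, 0 of 26 passed in WT Ang II versus WT saline (0.00964% of all transcripts did), 0 of 26 between KO and WT Ang II (0.00482%) and 0 of 26 in KO Ang II versus WT saline (0.0723%). At an unadjusted p under 0.05 stood 5 of the 26 in WT Ang II versus WT saline, against 5.32% of all transcripts, 4 between KO and WT Ang II, against 6.85%, and 2 in KO Ang II versus WT saline, against 6.64%. Transcripts of 1 gene share reads, so these counts are not of independent items.

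Pdgfra was split between Pdgfra-201 and Pdgfra-202, which share 21 of 23 exons and all 3267 coding bases. Pdgfra-201 begins at 75152306, beside the promoter window printed above, and Pdgfra-202 at 75155899. Pdgfra-202 had 7.71, 8.23, 32.8, 23.1 and 3.64 FPKM in KO Ang II, 13.5, 31.3, 24.3, 16.96 and 6.96 in WT Ang II, and 0.0392, 8.72, 4.601, 0.0604 and 6.33 in WT saline. It took on average 55.9% of the Pdgfra sum in KO Ang II, 67.0% in WT Ang II and 19.1% in WT saline, and Pdgfra-201 took 40.8%, 23.2% and 75.2% in the same groups. In WT Ang II versus WT saline Pdgfra-202 differed by 2.38 (SE 0.71, limma adjusted p = 0.754) and Pdgfra-201 by -2.31 (SE 0.86, adjusted p = 0.836), neither past the threshold. Shares of single animals ran from 0.131% to 95.4% for Pdgfra-202, and since both forms differ only at their ends, reads from the shared exons cannot tell them apart.

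Serpinf1 was split between Serpinf1-201, the full coding transcript with 1251 coding bases, and Serpinf1-207, annotated as a target of nonsense-mediated decay. Serpinf1-207 had 2.56, 52.4, 5.86, 2.48 and 22.8 FPKM in KO Ang II, 66.5, 44.0, 63.5, 113 and 96.6 in WT Ang II, and 97.4, 9.12, 69.4, 3.57 and 59.5 in WT saline. Only KOAngII537 reached the WT Ang II range. The difference of KO Ang II from WT Ang II was -2.86 for Serpinf1-207 (SE 0.90, limma adjusted p = 0.712) and -0.14 for Serpinf1-201 (SE 0.29, adjusted p = 0.925). The means of Serpinf1-201 were 103 ± 48.5 FPKM in KO Ang II, 112 ± 37.2 in WT Ang II and 117 ± 26.5 in WT saline (SD, n = 5 each), so most of the gap between the groups in the Serpinf1 sum lay in Serpinf1-207. Serpinf1-207 shares 3 of its 5 exons with Serpinf1-201, so the split of reads between them is uncertain. The forms are 882 and 1832 bases long, so the FPKM sum depends on that split too. Its part in the gap was not tested.

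**Figure D4:**
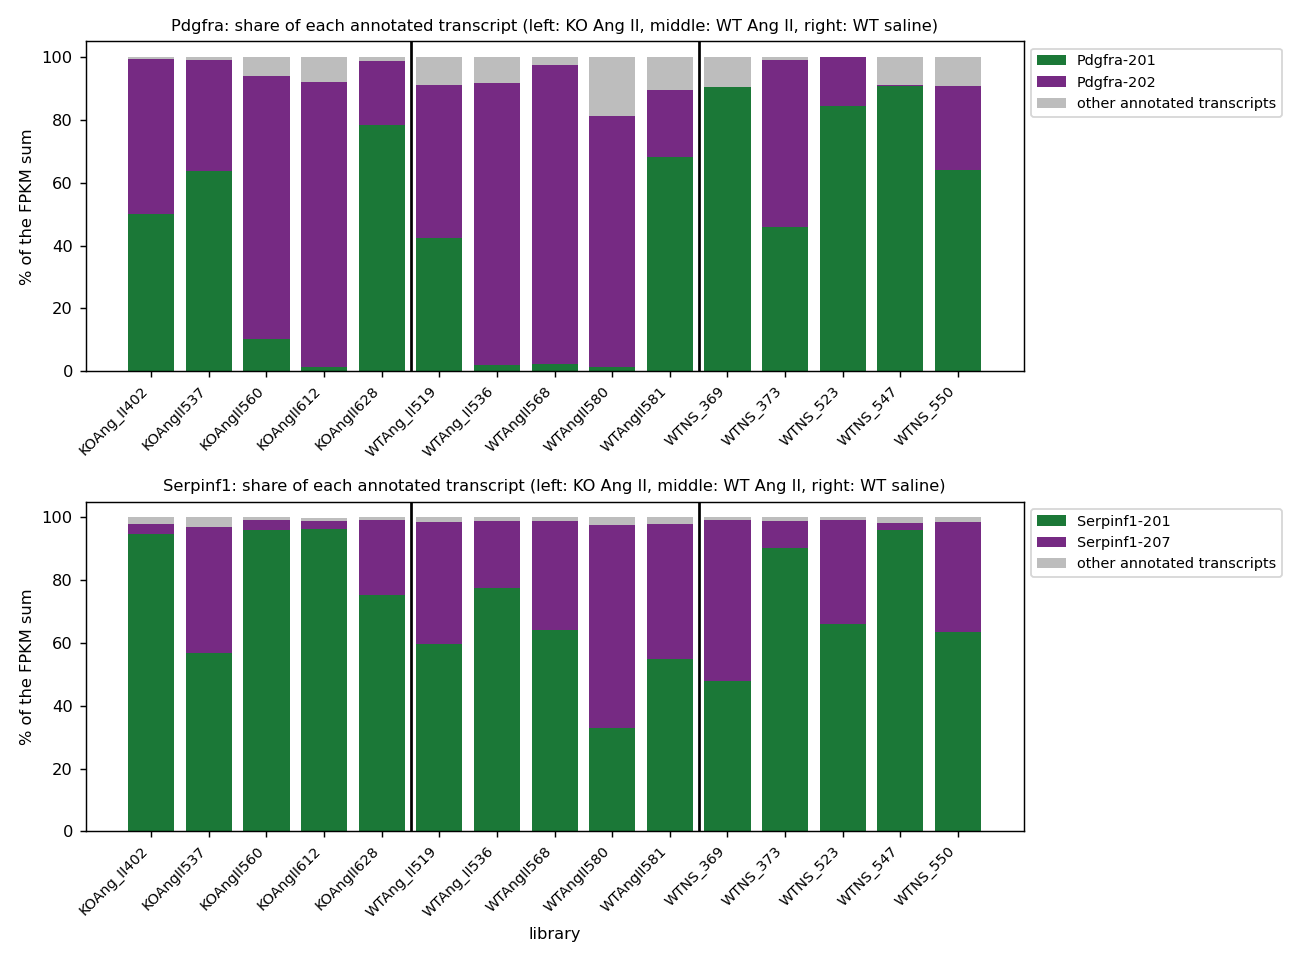
Share of the FPKM sum of Pdgfra (top) and Serpinf1 (bottom) taken by each annotated transcript, in percent (vertical axis), per library, with KO Ang II at the left, WT Ang II in the middle and WT saline at the right. Pdgfra-201 averages 75.2% in WT saline, and shares of both genes swing widely between animals of 1 group.

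Ly6a and Pi16 were split as well. Ly6a-202 and Ly6a-203, which share all their coding bases, held 54.6% and 32.9% of the Ly6a sum over all libraries, but Ly6a-203 was listed at 0 in 4 libraries and reached 76.5% in another. Pi16-201, a short coding form, had 0 to 3.504 FPKM in KO Ang II, 5.26 to 14.2 in WT Ang II and 0 to 9.75 in WT saline. Every KO Ang II library lay below every WT Ang II library, as was so for this 1 of the 26 transcripts and for 0.578% of all transcripts, with a difference of -2.13 (SE 0.62, limma adjusted p = 0.712). Pi16-201 held only 7.45% of the Pi16 sum. The largest form, Pi16-202 (42.8% of the sum), went the other way in this comparison, by 0.54 (SE 0.38, limma adjusted p = 0.746). Pi16-203 (29.7%) differed by -0.06 and Pi16-204 (20.1%) by -0.67. Mfap5-207 held 77.0% of the Mfap5 sum and differed by 0.51 in WT Ang II versus WT saline (limma adjusted p = 0.899), about as the sum did.

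The wider fibroblast and matrix programme was read from 6 further lists, in which 0 genes passed limma in any of the 3 comparisons. Of 25 other adventitial fibroblast genes 22 were tested, and 17 were above 0 in WT Ang II versus WT saline (median 0.19), 19 below 0 between KO and WT Ang II (median -0.23) and 11 below 0 in KO Ang II versus WT saline (median -0.01). Gsn, the actin-severing protein gelsolin, had 1359 ± 705 FPKM in KO Ang II, 1626 ± 534 in WT Ang II and 1572 ± 174 in WT saline (SD, n = 5 each), again with the narrowest spread in saline. Igfbp6, which binds insulin-like growth factor 2, differed by -0.41 between KO and WT Ang II (SE 0.24, limma adjusted p = 0.643).

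Microfibril and elastic fibre genes, the family of Mfap5, were all above 0 in WT Ang II versus WT saline (9 of 9 tested, median 0.41) and all below 0 between KO and WT Ang II (median -0.46), which rescaling and quantile normalization did not alter. Eln, elastin, had 272 ± 174 FPKM in KO Ang II, 428.5 ± 174 in WT Ang II and 230.0 ± 62.1 in WT saline (SD, n = 5 each), with a difference of 0.85 for WT Ang II versus WT saline (SE 0.35, limma adjusted p = 0.94) and of -0.75 between KO and WT Ang II (SE 0.35, adjusted p = 0.62). Mfap4, a microfibril-associated protein, differed by -0.43 between KO and WT Ang II (limma adjusted p = 0.637). Its difference in WT Ang II versus WT saline, 0.14, turned to -0.191 with marker covariates and to -0.274 with only the highest transcript per gene. As single libraries were left out it ran from -0.052 to 0.276. The count of 9 of 9 above 0 thus did not hold in every setting.

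Fibrillar collagens and small leucine-rich proteoglycans, the family of Dcn, were above 0 in 9 of 12 genes in WT Ang II versus WT saline (median 0.28) and below 0 in 9 of 12 between KO and WT Ang II (median -0.22). Col3a1, the chain of type III collagen, differed by 0.77 in WT Ang II versus WT saline (SE 0.34, limma adjusted p = 0.94). Bgn, biglycan, the proteoglycan closest to decorin, had 1635 ± 398 FPKM in KO Ang II, 2010.0 ± 596 in WT Ang II and 1644 ± 356 in WT saline (SD, n = 5 each).

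Genes of activated fibroblasts and myofibroblasts were above 0 in 14 of 17 in WT Ang II versus WT saline (median 0.32) and below 0 in 11 of 17 between KO and WT Ang II (median -0.10). In KO Ang II versus WT saline 11 of 17 were above 0 with a median of 0.44, where the 10 genes had -0.20, a contrast that was not tested. At an unadjusted limma p under 0.05 stood 4 genes of this list above 0 and 1 below in that comparison. Fn1, fibronectin, and Ccn2, connective tissue growth factor, were among the 6 genes below 0 there. Fn1 differed by -0.37 (SE 0.43, limma adjusted p = 0.878) and Ccn2 by -0.61 (SE 0.51, adjusted p = 0.825). Ccn2 had 188 to 1638 FPKM in KO Ang II, 419 to 944 in WT Ang II and 246 to 834 in WT saline.

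PDGF ligands and receptors, the pathway of Pdgfra and a list that holds it, were above 0 in 6 of 6 genes in WT Ang II versus WT saline with a median of 0.10. They were split 3 and 3 in both KO Ang II comparisons, but with FPKM rescaled to the same total 5 of 6 were below 0 between KO and WT Ang II and 4 of 6 in KO Ang II versus WT saline. The ligand Pdgfa had 18.3 ± 8.89 FPKM in KO Ang II, 22.6 ± 8.28 in WT Ang II and 20.9 ± 5.24 in WT saline, and the sister receptor Pdgfrb, found on pericytes, had 18.4 ± 5.12, 16.2 ± 3.94 and 16.4 ± 6.03 (SD, n = 5 each). Fibroblast transcription factors had a median of 0.19 in WT Ang II versus WT saline (7 of 12 above 0) and of -0.01 between KO and WT Ang II (6 of 12 below 0, or 8 of 12 after rescaling). In KO Ang II versus WT saline 8 of 12 were above 0, or 7 of 12 after rescaling, with a median of 0.16 before it. Klf4, a zinc finger factor, and Prrx1, a homeobox factor of mesenchymal cells, were among the 4 below 0. In that comparison Klf4 differed by -0.35 (SE 0.14, limma adjusted p = 0.518) and Prrx1 by -0.05 (adjusted p = 0.97).

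**Figure D5:**
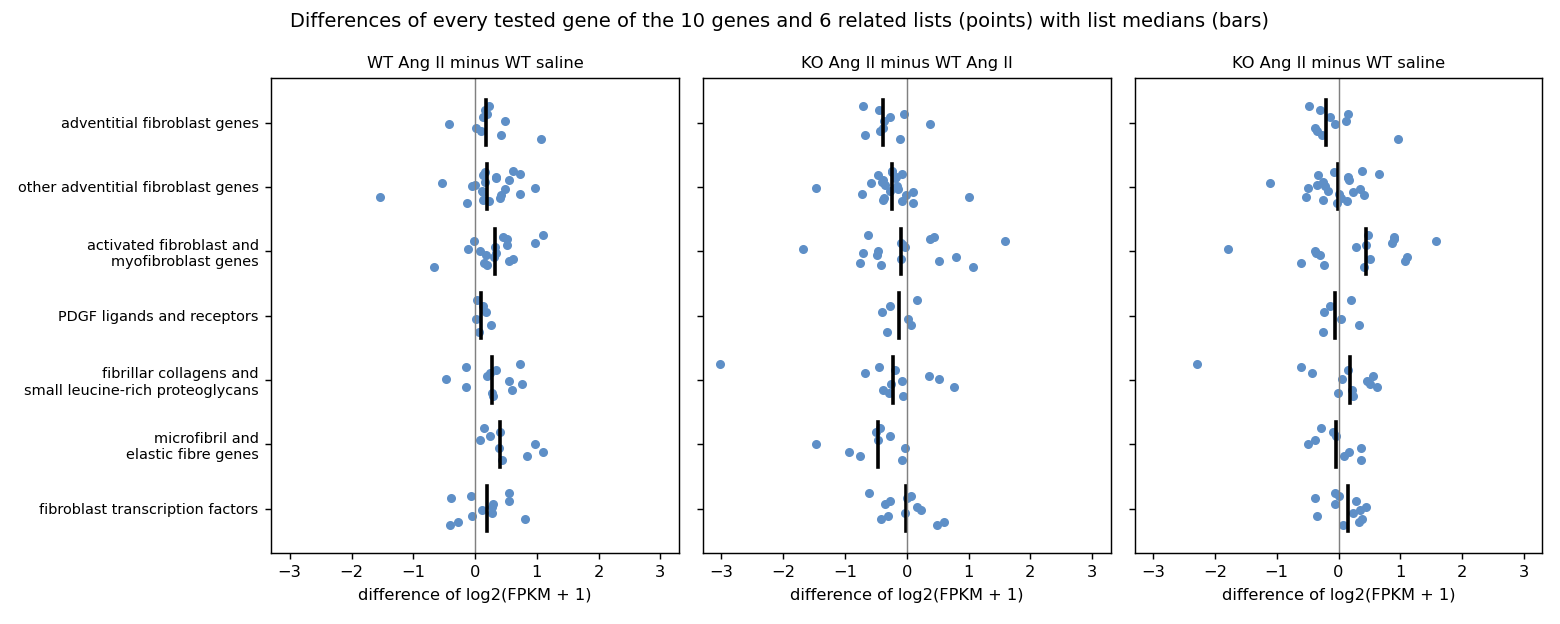
Difference on the log2(FPKM + 1) scale (horizontal axis) of every tested gene (points) of the 10 adventitial fibroblast genes and 6 related lists (rows), with the list median as a black bar, for WT Ang II minus WT saline (left), KO Ang II minus WT Ang II (middle) and KO Ang II minus WT saline (right). The medians of the 10 genes are 0.18, -0.38 and -0.20, and no gene shown passed in limma.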

How the data were processed

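The authors deposited FPKM per transcript in 1 table per library, and their quantifier is not given in the sources used here. For mapping the genome was mm10, and bcl2fastq, FastQC and fastp were used, per the submitters' processing notes, which give no versions; per the labels' protocols TRIzol was used for RNA and an NEBNext Ultra kit for libraries. Whether reads were counted by strand is not given in the sources used here.

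FPKM of annotated transcripts, named through GENCODE M21 (GRCm38), were summed per gene. The KO Ang II and WT tables list different transcripts, and one that a table lacks was taken as 0; of the 31 transcripts of the 10 genes, Dcn-203 and Pdgfra-206 were in the WT tables only. Transcripts the authors assembled themselves, 12.3% to 15.9% of each library's sum, carry no position and were not counted. Depth was worked out from the step between low values: of values under 50 reads, 98.7% to 99.1% came within 0.05 of a whole read. FPKM give no counts for a count model, so log2(FPKM + 1) was tested with limma 3.58.1 (R 4.3.3; trend and robust), 15 libraries in 1 model, over the 12635 of 14591 genes in both tables with a mean of at least 1 FPKM, with Benjamini-Hochberg adjustment and a threshold of 0.05 in 3 comparisons. Adjusted p are from this fit unless another setting is named beside them. Those of single transcripts are from the same model over 20755 transcripts. The gene fit was checked on simulated data with independent normal errors for each gene. Such data lack the shared variation between genes described above, so the check does not cover it. The pseudocount of 1 shrinks differences of low genes. p-values measure the spread between animals as labelled.

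The 10 genes, 6 gene lists and 12 marker lists were chosen with earlier results of these data known. Named are the 10 genes, up to 4 genes per list that pass or else the 2 with the highest mean, and the 10 genes most like the set by Pearson's r after removing group means; unnamed gene models were passed over. Alternatives were another pseudocount (0.1), no filter, other handling of unlisted transcripts, other scaling, limma settings, sample weights, the highest transcript per gene, 2 groups per fit, marker covariates, library subsets and leaving out each library. The fit of single transcripts was added after the data were seen. KO saline was left out because its tables hold only part of each library, 2025 transcripts, and no transcript of the set. Sequences are from RefSeq tables of GRCm38.p6.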

Additional observations from a re-analysis of the deposited data

Results flagged for a closer look

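In 3 of the 30 groups of 5 libraries formed by the 10 genes, 1 library stood far from the others. Its gap to the nearest, in FPKM without logarithm, was more than 0.71 of the group's range. For normally distributed values chance gives this in about 1 group in 20, a rate that need not hold for FPKM. Dcn was at 1650 FPKM in KOAngII560, with the next library at 856. Dpt was at 297 FPKM in the same animal, with the next at 171. Pi16 was at 53.6 FPKM in WTAngII568, below the next library at 79.5. Among the 36 groups of the 12 genes named from the lists there were also 3, all of them KOAngII612: Ccn2 at 1638 FPKM with the next at 342, Pdgfa at 33.6 with the next at 17.4, and Eln at 576 with the next at 231.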

How the results depend on the processing

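No gene of the 10 passed in any alternative. Their smallest adjusted p in limma over all settings was 0.29 in WT Ang II versus WT saline (Cd248, without WTNS_523), 0.131 between KO and WT Ang II (Serpinf1, with sample weights) and 0.0863 in KO Ang II versus WT saline (Cd248, without WTNS_523). The medians of the 10 kept their sign as each library was left out: 0.105 to 0.246, -0.514 to -0.278 and -0.404 to -0.105 in these comparisons. With FPKM rescaled to the same total they were 0.25, -0.491 and -0.243, where all genes had 0.0738, -0.102 and -0.0186. No paired analysis was possible because the groups share no animal numbers.

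Genes called over all genes numbered 0, 0 and 13. In WT Ang II versus WT saline the count was 1 with the highest transcript per gene and 3 among libraries without intestinal transcripts, and 0 to 1 as libraries were left out (1 without WTNS_550). Between KO and WT Ang II it was 6 among libraries with intestinal transcripts and 0 to 7 as libraries were left out (7 without WTAngII580 and 2 without WTAngII581). In KO Ang II versus WT saline it was 30 with sample weights, 0 with marker covariates, and 7 to 15 as libraries were left out (7 without KOAngII537 and 8 without WTNS_547). Why these counts moved was not tested, beyond the smaller number of libraries in the subsets. Of the 10 genes most like the set, 6 remained after quantile normalization, 4 with the highest transcript per gene, 3 without KOAngII560 and 5 without WTAngII568.

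None of the reversals below concerned a gene that passed. With marker covariates WT Ang II versus WT saline turned to -0.194 for Pdgfra, -0.0674 for Dcn, -0.00615 for Pi16, -0.0982 for Dpt, -0.368 for Fn1, -0.504 for Ccn2, -0.382 for Pdgfa, -0.336 for Pdgfrb, -0.115 for Bgn and -0.191 for Mfap4. KO versus WT Ang II turned to 0.0105 for Pdgfra, 0.171 for Pi16, 0.227 for Cd248, 0.000938 for Fn1, 0.236 for Ccn2, 0.364 for Pdgfa, 0.197 for Bgn and 0.169 for Col3a1, and KO Ang II versus WT saline to 0.0287 for Ly6a and 0.0822 for Bgn. With the highest transcript per gene WT Ang II versus WT saline turned to -0.15 for Pi16, -0.107 for Serpinf1 and -0.274 for Mfap4, KO versus WT Ang II to 0.539 for Pi16, and KO Ang II versus WT saline to 1.89 for Pdgfra and 0.0912 for Prrx1; for Pdgfra that transcript is Pdgfra-202. In WT Ang II versus WT saline quantile normalization gave -0.0245 for Dpt, rescaling 0.0664 for Gsn and 0.017 for Klf4, libraries without intestinal transcripts 0.0317 for Gsn and 0.0108 for Klf4, and sample weights 0.00667 for Gsn and -0.0934 for Pdgfrb. Sample weights also gave -0.0369 for Pdgfrb between KO and WT Ang II, and -0.13 for Pdgfrb and -0.115 for Eln in KO Ang II versus WT saline.

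As libraries were left out, WT Ang II versus WT saline ran from -0.0267 to 0.22 for Pdgfra, -0.0778 to 0.211 for Dcn, -0.0634 to 0.111 for Dpt, -0.161 to 0.115 for Gsn, -0.172 to 0.289 for Ccn2, -0.0881 to 0.22 for Pdgfa, -0.156 to 0.164 for Pdgfrb, -0.052 to 0.276 for Mfap4 and -0.127 to 0.00674 for Klf4. KO versus WT Ang II ran from -0.177 to 0.132 for Pi16, and KO Ang II versus WT saline from -0.011 to 0.332 for Pi16, -0.341 to 0.11 for Ly6a, -0.0143 to 0.249 for Mfap5, -0.161 to 0.0946 for Bgn, -0.224 to 0.302 for Eln and -0.19 to 0.0215 for Prrx1. With 5 animals per group the unadjusted intervals of most of the 10 genes reached about 0.5 on the log2 scale to either side, and after adjustment even 1.07 for Cd248 and -0.702 for Serpinf1 did not pass.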
